A study of Homo sapiens with 4 samples.

Results

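The genes described here are 35 genes of fatty acid and triglyceride synthesis, with the lipid droplet and lipase genes that act beside them, measured in cells treated with GSK343 and in control cells. The members were chosen by name from a list of the pathway, and a member's values are those of the array probes that name this gene alone. All 35 had at least 1 such probe, of 18365 genes on the array with a probe of their own. They had 51 probes together: 20 genes had 1 probe, 14 had 2 and PNPLA2 had 3, and 0 of the 51 named a further gene.

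4 groups of cells were measured, each by 1 array: HepG2 cells with 10 μM GSK343, control HepG2 cells, A549 cells with 10 μM GSK343 and control A549 cells, all harvested at 6 h. HepG2 is a human liver cancer line and A549 a human lung cancer line, and both grew in DMEM with heat-inactivated serum. GSK343 competes with S-adenosylmethionine for EZH2, the enzyme that methylates histone H3 at lysine 27 and silences genes. What the control cells received in place of the drug is not given in the sources used here. The question was which genes GSK343 changes, and the second line allows the same question to be asked in cells of another tissue.

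Cells make fatty acids from citrate. ATP citrate lyase cuts citrate to acetyl-CoA, acetyl-CoA carboxylase adds a carboxyl group, and fatty acid synthase builds palmitate from the products with NADPH. Elongases and desaturases then change chain length and double bonds, acyl-CoA synthetases activate the acid, and acyltransferases with a phosphatidate phosphatase join the acyl chains to glycerol. The transcription factors SREBP-1 (gene SREBF1) and ChREBP (gene MLXIPL) drive much of this pathway in liver, where the triglyceride is stored in droplets or secreted.

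The deposited values are intensities of the Cy5 dye on a linear scale, in arbitrary units. A difference below is log2 of the intensity with GSK343 minus log2 of the intensity in the control of the same line, so that 1 means 2-fold higher intensity with GSK343, and a gene's difference is the mean over its probes. Since each group is 1 array, there is no replicate error, and none of the differences could be tested. As a yardstick, the difference measured by separate probes of one gene had an SD of 0.39 in HepG2 and 0.42 in A549 over all genes (7404 and 7420 probe pairs). A size of 1.5-fold, or 0.585 on the log2 scale, was used to count genes. The array median with GSK343 differed from that of the control by -0.08 in HepG2 and 0.12 in A549 on the log2 scale. Intensities of different probes depend on the probe, so differences are taken within a probe, and "brighter" or "dimmer" between probes of a gene names only their measured intensities.

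The labelled lines were checked first. The 11 hepatocyte markers measured of 13 listed, such as ALB, AFP and APOB, were each at or above the array median on both HepG2 arrays and at least 2-fold higher in HepG2 control than in A549 control cells. Their summed intensity was 1915427 in HepG2 with GSK343 and 1831889 in HepG2 control, against 3905 in A549 with GSK343 and 4351 in A549 control. Of 9 alveolar type II cell markers, 0 reached the median on the HepG2 arrays and 1, ABCA3, did so on the A549 arrays, where SFTPC, SFTPB and NKX2-1 were below it. The 5 genes usually high in A549 culture, such as VIM and KRT7, were at or above the median on both A549 arrays. Over all genes, 517 were higher and 801 lower in HepG2 by 1.5-fold after median centring of the arrays and 557 higher and 750 lower after quantile normalization, against 366 higher and 1003 lower as deposited. In A549, 587 were higher and 945 lower after median centring and 816 higher and 647 lower after quantile normalization, against 956 higher and 507 lower as deposited.

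In HepG2, 4 of the 35 genes (11.4%) were at least 1.5-fold higher with GSK343 and 0 were 1.5-fold lower, against 2.0% of all genes higher and 5.47% lower. The 4 were LPIN1, ACSS2, ELOVL3 and FASN, with differences of 1.30, 1.14, 0.89 and 0.60. In RNA of whole cultures, a change in the number of cells with a transcript and in its amount per cell cannot be told apart. In A549, 5 of the 35 (14.3%) were 1.5-fold higher and 0 lower, against 5.21% and 2.76% of all genes. These were FADS2, AGPAT2, LPIN1, ACLY and LPIN2, with differences of 1.02, 0.85, 0.85, 0.67 and 0.62. LPIN1 was the 1 member past this size in both lines. After median centring, the A549 count was 3 higher (FADS2, AGPAT2 and LPIN1) and 1 lower (PNPLA3), and the HepG2 count was 4 higher and 0 lower. Over all genes, centring gave 587 higher and 945 lower of 18338 in A549, and 517 higher and 801 lower of 18322 in HepG2.

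The list as a whole had differences on both sides of 0. Its median difference was -0.03 in HepG2, against -0.02 over all genes, with 16 members above 0 and 19 below. The sign of this median turned after median centring (0.03, against 0.05 over all genes). In A549 the median was 0.11, against 0.04 over all genes, with 24 members above 0 and 11 below. After median centring it was -0.01, against -0.08 over all genes. Quantile normalization gave -0.001 in HepG2 and 0.05 in A549, against 0.03 and -0.008 over all genes. The members ranged between -0.56 and 1.30 in HepG2 and between -0.49 and 1.02 in A549. As deposited, 12 members were above 0 in both lines, 7 below 0 in both, 4 above 0 in HepG2 alone and 12 above 0 in A549 alone. Median centring adds the same constant to every gene of a line, so the signs of members close to 0 (5 members within 0.06 in HepG2 and 7 within 0.11 in A549) depend on the scaling. The plot of differences per probe shows how few members left the band of 1.5-fold.

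**Figure D1:**
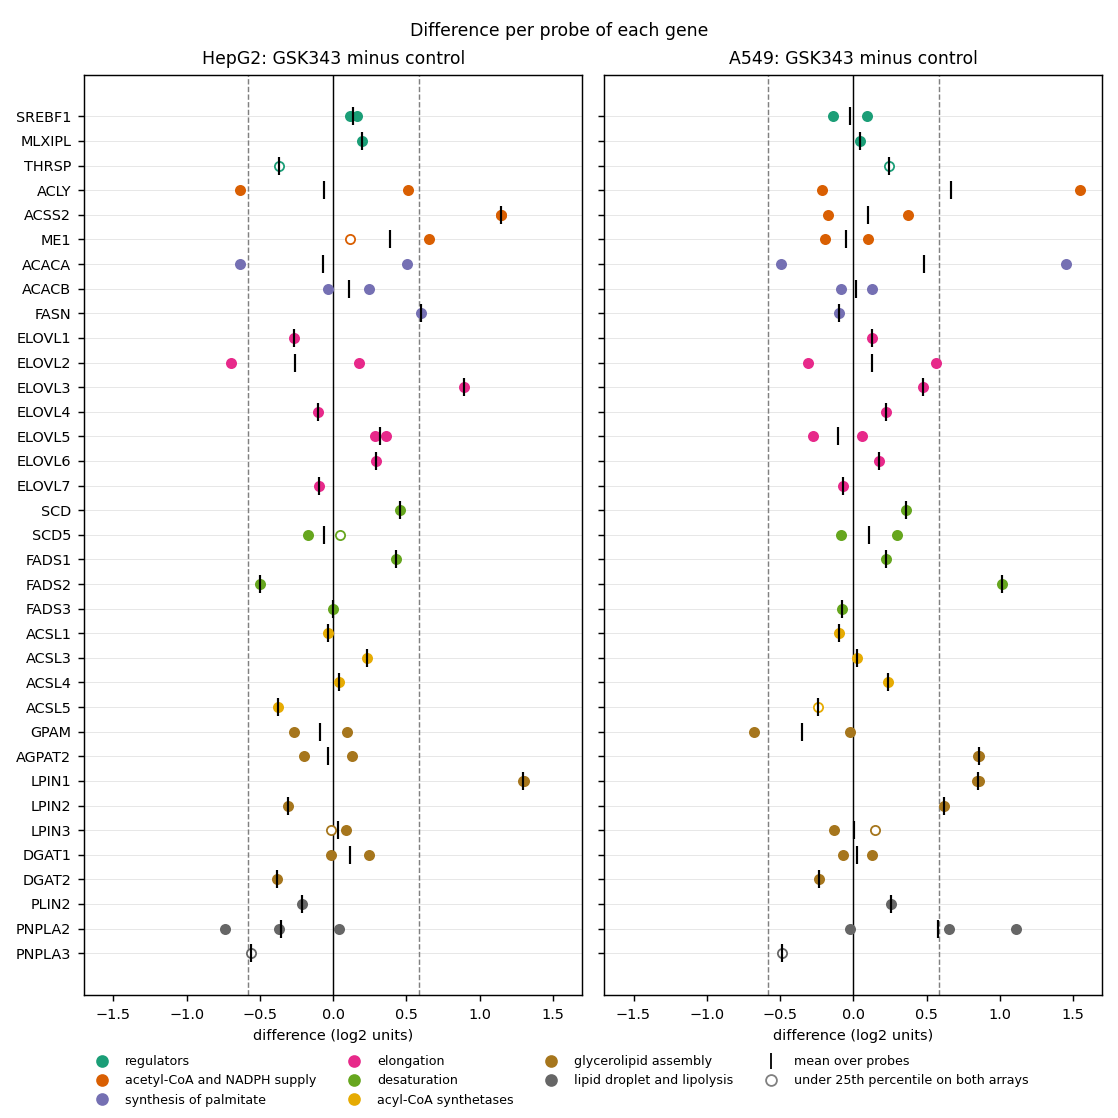
Difference of each probe (GSK343 minus control, log2 units, x axis) for the 35 genes (y axis, coloured by role), in HepG2 (left) and A549 (right); vertical ticks are means over a gene's probes, open circles are probes under the 25th percentile on both arrays, and dashed lines mark 1.5-fold. LPIN1 (1.30 in HepG2, 0.85 in A549) is the 1 gene whose mean is past the dashed line in both panels, and the 2 probes of ACLY and of ACACA fall on opposite sides of 0 in each panel.

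Phosphatidate phosphatase, which takes the phosphate from phosphatidic acid to give diacylglycerol, is encoded by the lipin genes LPIN1, LPIN2 and LPIN3, and lipin 1 is also a nuclear coactivator. LPIN1 had the highest mean difference of the 35 genes in HepG2. Its probe 1 gave 6171 with GSK343 and 2507 in control HepG2 cells, and 6413 with GSK343 and 3534 in control A549 cells. Its probe 2 gave 5032 and 2054 in HepG2 cells with GSK343 and without, and 6136 and 3414 in A549 cells with GSK343 and without. Both probes were thus higher with GSK343 in both lines, by 2.46- and 2.45-fold in HepG2 and by 1.81- and 1.80-fold in A549. The gap between the probes was 0.01 log2 units in either line, well inside the spread between probes.

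The start of LPIN1 is printed because both probes of the gene were past 1.5-fold in both lines. The window holds 250 bases before the RefSeq start and 50 after it, in GRCh38.p14, on the + strand at chr2:11746382-11746681. It is the first of the windows RefSeq gives for LPIN1. Capitals mark the 4 GC boxes (GGGCGG or its complement CCGCCC), the binding motif of SP1.
LPIN1: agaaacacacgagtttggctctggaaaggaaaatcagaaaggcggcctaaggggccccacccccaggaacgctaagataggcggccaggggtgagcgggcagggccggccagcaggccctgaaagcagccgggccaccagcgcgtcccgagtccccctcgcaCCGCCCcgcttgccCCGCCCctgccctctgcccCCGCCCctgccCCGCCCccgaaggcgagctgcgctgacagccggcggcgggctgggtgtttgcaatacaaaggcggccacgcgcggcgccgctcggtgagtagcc
No sterol regulatory element (TCACNCCAC), the motif of SREBP, no E-box (CACGTG) and no CCAAT box was in these letters, on either strand.

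Of the other lipins, LPIN2 was past 1.5-fold in A549 and LPIN3 in neither line. LPIN2 gave 2302 with GSK343 and 2849.7 in control HepG2 cells, and 2331 with GSK343 and 1515 in control A549 cells. It was thus lower in HepG2 by less than 1.5-fold (-0.31) and higher in A549 (0.62), and quantile normalization or median centring left the A549 value under 1.5-fold. LPIN3 had differences of 0.03 in HepG2 and 0.01 in A549, and its second probe was under the 25th percentile on all 4 arrays. As deposited, 1 of 3 lipin genes was past 1.5-fold in HepG2 and 2 of 3 in A549. After either scaling, LPIN1 was the only lipin gene past it in A549. Of all genes, 2.0% were 1.5-fold higher in HepG2 and 5.21% in A549 as deposited.

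AGPAT2, which adds the second acyl chain to make phosphatidic acid, was high in A549 and dim in HepG2. Its probe 1 gave 6057 with GSK343 and 3336 in control A549 cells, and 314 with GSK343 and 288 in control HepG2 cells. Its probe 2 gave 6547 and 3633 in A549 cells with GSK343 and without, and 151 and 174 in HepG2 cells with GSK343 and without. The A549 differences of both probes, 0.86 and 0.85, were 0.01 apart, and the HepG2 differences, 0.13 and -0.20, lay on either side of 0. The start of AGPAT2 is shown because both probes were past 1.5-fold in A549, on the - strand of GRCh38.p14 at chr9:136687408-136687707, with 7 GC boxes in capitals, of which 2 overlap by 1 base, and none of the other 3 motifs.
AGPAT2: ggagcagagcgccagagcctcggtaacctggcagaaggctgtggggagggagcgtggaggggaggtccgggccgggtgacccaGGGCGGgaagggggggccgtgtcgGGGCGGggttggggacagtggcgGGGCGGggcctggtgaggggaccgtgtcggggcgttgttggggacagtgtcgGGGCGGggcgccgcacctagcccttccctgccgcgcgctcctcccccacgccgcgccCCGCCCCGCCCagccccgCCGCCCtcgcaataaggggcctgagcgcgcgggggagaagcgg

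The remaining enzymes of glycerolipid assembly stayed within 1.5-fold in their means. GPAM, the mitochondrial acyltransferase that starts the pathway, had a mean difference of -0.09 in HepG2 and -0.35 in A549. The brighter of its probes in HepG2 gave 759.9 with GSK343 and 1213 in control A549 cells (-0.68), and the other gave 1063 and 1082. DGAT1 and DGAT2 add the last acyl chain. DGAT1 had differences of 0.11 in HepG2 and 0.03 in A549. DGAT2 gave 5218 with GSK343 and 6809 in control HepG2 cells, and 471 with GSK343 and 554 in control A549 cells. It was thus lower with GSK343 in both lines (-0.38 and -0.23), by less than 1.5-fold.

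**Figure D2:**
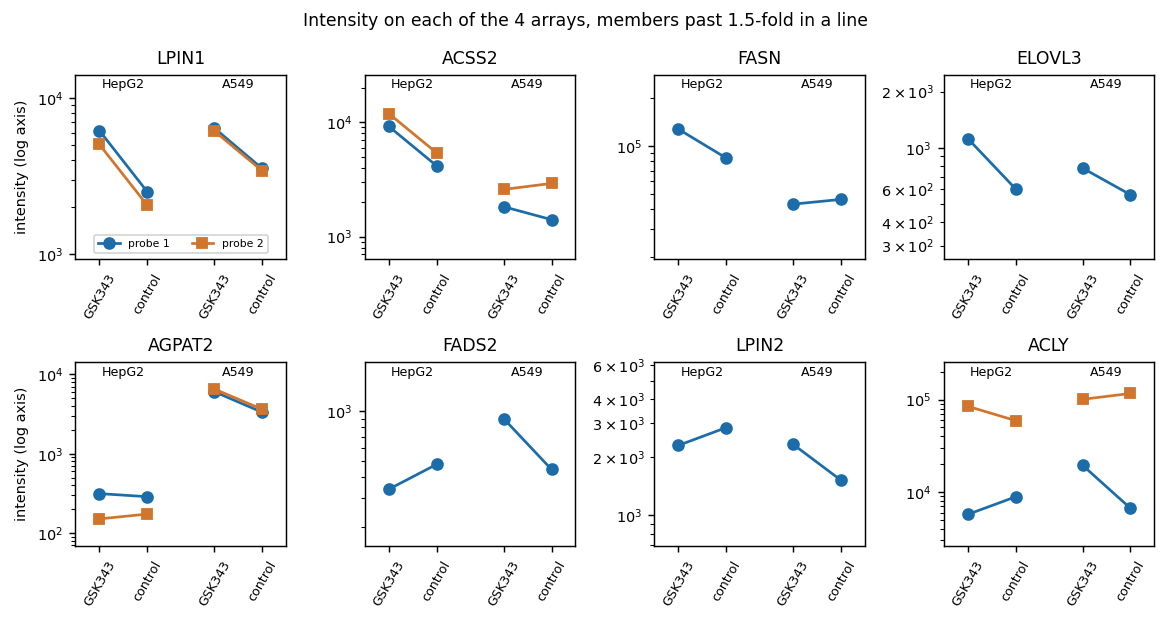
Intensity (log axis, arbitrary units) on each of the 4 arrays for the 8 genes past 1.5-fold in a line, with GSK343 left of control in each line; blue circles are probe 1, orange squares probe 2, and the scale differs between panels. Both LPIN1 probes slope the same way in both lines (6171 and 2507 for probe 1 in HepG2 with GSK343 and control), whereas the ACLY probes slope in opposite ways within each line.

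Acetyl-CoA for the pathway comes from citrate or acetate. ACSS2, which makes acetyl-CoA from acetate in the cytosol and nucleus, gave 9188 with GSK343 and 4151 in control HepG2 cells on probe 1, and 11895 and 5389.8 on probe 2. In A549 its probe 1 gave 1823 with GSK343 and 1405 in control cells, and its probe 2 gave 2583 and 2916. Both probes were 2.21-fold higher with GSK343 in HepG2, and in A549 they lay on either side of 0 (0.38 and -0.18). The HepG2 difference minus the A549 difference was 0.77 on probe 1 and 1.32 on probe 2, and this gap between the lines was not tested. The first RefSeq window of ACSS2 is shown since both probes were past 2-fold in HepG2, at chr20:34874739-34875038 on the + strand of GRCh38.p14, with 1 GC box (CCGCCC) and 1 CCAAT box (ATTGG, its complement) in capitals.
ACSS2: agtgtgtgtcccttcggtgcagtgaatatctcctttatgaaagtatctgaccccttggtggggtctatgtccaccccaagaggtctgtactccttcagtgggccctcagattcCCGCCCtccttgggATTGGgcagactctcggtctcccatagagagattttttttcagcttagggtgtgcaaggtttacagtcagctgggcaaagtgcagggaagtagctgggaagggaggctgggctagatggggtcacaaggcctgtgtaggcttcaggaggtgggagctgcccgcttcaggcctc

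ACLY, ATP citrate lyase, was measured by probes that went opposite ways. Its probe 1 gave 5721 with GSK343 and 8876 in control HepG2 cells, and 19453 with GSK343 and 6666 in control A549 cells. Its probe 2, the brighter one, gave 84713 with GSK343 and 59335 in control HepG2 cells, and 100813 with GSK343 and 116655 in control A549 cells. Probe 1 was thus lower in HepG2 (-0.63) and higher in A549 (1.55), and probe 2 higher in HepG2 (0.51) and lower in A549 (-0.21). The mean of 0.67 that placed ACLY among the A549 genes therefore rested on probe 1, and by the brightest probe it would be -0.21. The gap between the probes was 1.15 log2 units in HepG2 and 1.76 in A549, far over the SD between probes of one gene.

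ME1, the cytosolic malic enzyme that yields NADPH, gave 16562 with GSK343 and 18962 in control A549 cells on probe 1, and 7262 and 6780.0 on probe 2. In HepG2 it gave 319.5 with GSK343 and 203 in control cells on probe 1, and 36.2 and 33.5 on probe 2. Probe 2 lay at percentiles 9.90 and 8.15 of the HepG2 arrays with GSK343 and without, and probe 1 at 44.7 and 36.8. In HepG2 probe 1 differed by 0.66 and probe 2 by 0.11. The HepG2 mean of 0.38 thus came mostly from probe 1, which lay below the median of both HepG2 arrays. With the brightest probe per gene, or with probes reaching the 25th percentile, ME1 was past 1.5-fold in HepG2. The mean A549 difference of ME1 was -0.05.

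Palmitate is made by acetyl-CoA carboxylase and fatty acid synthase. FASN, measured by 1 probe, gave 127593 with GSK343 and 84140.2 in control HepG2 cells, and 43207 with GSK343 and 46280.1 in control A549 cells. It was higher in HepG2 (0.60, 1.52-fold) and within 1.5-fold in A549 (-0.10), and quantile normalization left the HepG2 value under 1.5-fold. ACACA, the cytosolic carboxylase, had the same split between probes as ACLY. Its probe 1 gave 258 with GSK343 and 403 in control HepG2 cells, and 452 with GSK343 and 165 in control A549 cells. Its probe 2 gave 17649 with GSK343 and 12460.1 in control HepG2 cells, and 15088 with GSK343 and 21228 in control A549 cells. The dim probe was thus lower in HepG2 and higher in A549 (-0.64 and 1.45), and the bright probe higher in HepG2 and lower in A549 (0.50 and -0.49). Neither mean passed 1.5-fold (-0.07 in HepG2 and 0.48 in A549). ACACB, the carboxylase of the mitochondrial surface, differed by 0.10 and 0.02.

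The 7 elongases add carbons to acyl chains. ELOVL3, which acts on saturated and monounsaturated very long chains, was the 1 elongase past 1.5-fold. Its single probe gave 1122 with GSK343 and 603 in control HepG2 cells, and 779 with GSK343 and 562 in control A549 cells. It was higher with GSK343 by 0.89 in HepG2 and, under 1.5-fold, by 0.47 in A549. ELOVL2, which elongates polyunsaturated acids, gave 1912 with GSK343 and 3106 in control HepG2 cells on probe 1, and 32260.5 and 28519.8 on probe 2. In A549 its probe 1 gave 454 with GSK343 and 306 in control cells, and its probe 2 gave 5109 and 6330.4. Here too the dimmer probe was lower in HepG2 and higher in A549 (-0.70 and 0.57), and the brighter one the reverse (0.18 and -0.31). ELOVL1, ELOVL4, ELOVL5, ELOVL6 and ELOVL7 differed by between -0.27 and 0.32 in HepG2 and between -0.11 and 0.22 in A549. ELOVL6, which elongates palmitate to stearate, was above 0 in both lines (0.29 and 0.18).

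Among the desaturases, FADS2 stood out. This enzyme places the first new double bond in linoleic and linolenic acid, and its single probe gave 902 with GSK343 and 446 in control A549 cells, and 339 with GSK343 and 479 in control HepG2 cells. It was 2.02-fold higher in A549 (1.02), the highest mean A549 difference among the 35 genes, and lower in HepG2 by less than 1.5-fold (-0.50). The probe lay at percentile 49.6 of the A549 control array and 50.1 of the HepG2 control array. The dimmer probes of ACLY, ACACA and ELOVL2 had the same signs, and their brighter probes did not. FADS2 had no second probe for such a comparison. FADS1, its neighbour on chromosome 11, which acts later in the same route, gave 7223 with GSK343 and 5369 in control HepG2 cells, and 10387 with GSK343 and 8906 in control A549 cells. FADS1 was thus higher in both lines by less than 1.5-fold (0.43 and 0.22). SCD, which makes oleate and palmitoleate, had a like pair of differences (0.45 in HepG2 and 0.36 in A549). FADS3 differed by -0.0042 in HepG2 and -0.07 in A549. SCD5, a second stearoyl-CoA desaturase, had differences of -0.06 in HepG2 and 0.11 in A549. Its probe 1 gave 99.3 with GSK343 and 112 in control HepG2 cells, and 141 with GSK343 and 115 in control A549 cells. Its probe 2 gave 24.8 and 24.1 in HepG2 cells with GSK343 and without, and 1192 and 1263 in A549 cells with GSK343 and without, so that it was dim in HepG2 alone.

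The regulators were within 1.5-fold in both lines. SREBF1 gave 2378 with GSK343 and 2129 in control HepG2 cells on probe 1, and 12225 and 11272 on probe 2. In A549 its probe 1 gave 4045 with GSK343 and 3800.3 in control cells, and its probe 2 gave 17223 and 18916. Its mean differences were 0.14 in HepG2 and -0.02 in A549, below the spread between probes, and the array does not measure the cleavage by which the SREBP-1 protein is activated. MLXIPL gave 11296 with GSK343 and 9849 in control HepG2 cells (0.20), and 195 with GSK343 and 189 in control A549 cells (0.04). THRSP, a small nuclear protein that goes with lipogenesis in liver, was dim on every array, at 18.6 with GSK343 and 24.1 in control HepG2 cells and 46.0 with GSK343 and 38.9 in control A549 cells.

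The 4 acyl-CoA synthetases, which couple fatty acids to coenzyme A, were all within 1.5-fold. Their differences lay between -0.38 and 0.23 in HepG2 and between -0.24 and 0.24 in A549. ACSL4, which prefers arachidonate, gave 31920 with GSK343 and 30989 in control HepG2 cells (0.04), and 4750 with GSK343 and 4023 in control A549 cells (0.24). ACSL5, which sits on mitochondria and the endoplasmic reticulum, gave 2349 with GSK343 and 3053 in control HepG2 cells (-0.38), and 76.3 with GSK343 and 90.1 in control A549 cells (-0.24).

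The 3 droplet and lipolysis genes were below 0 in HepG2, also after median centring and quantile normalization, and none passed 1.5-fold in its mean. PLIN2, which coats lipid droplets, gave 120729 with GSK343 and 139917 in control HepG2 cells (-0.21), and 28247 with GSK343 and 23613 in control A549 cells (0.26). It was thus within 1.5-fold in both lines. PNPLA2, the adipose triglyceride lipase, had 3 probes. Probe 1 gave 1706 with GSK343 and 2204 in control HepG2 cells, and 2037 with GSK343 and 1295 in control A549 cells. Probe 2, the brightest, gave 4676 and 4547 in HepG2 cells with GSK343 and without, and 3649 and 3706 in A549 cells with GSK343 and without. Probe 3 gave 1065 and 1774 in HepG2 cells with GSK343 and without, and 1448 and 671 in A549 cells with GSK343 and without. Probes 1 and 3 were lower in HepG2 (-0.37 and -0.74) and higher in A549 (0.65 and 1.11), and probe 2 had differences of 0.04 and -0.02. The mean was -0.36 in HepG2 and 0.581 in A549, just under the 0.585 of 1.5-fold. PNPLA3, a lipase and acyltransferase of liver, differed by -0.56 and -0.49 at intensities of 24.8 and 26.4 with GSK343 in HepG2 and A549, against 36.6 and 37.0 in their controls, under the 25th percentile on all 4 arrays.

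Several members were thus read differently by their probes. Of the 15 members with more than 1 probe, the probes lay on one side of 0 in 5 in HepG2 and in 3 in A549. Between probes of one member the difference had an SD of 0.385 in HepG2 and 0.565 in A549 (17 pairs each), against 0.390 and 0.424 over all genes. Requiring every probe of a gene to pass 1.5-fold, a rule added after the values were seen, kept the 4 HepG2 genes and left FADS2, AGPAT2, LPIN1 and LPIN2 in A549. Of these 8 entries, LPIN1 in both lines, ACSS2 in HepG2 and AGPAT2 in A549 rested on 2 probes, and the others on 1. Over all genes, the same rule kept 326 of 18322 as higher in HepG2 and 803 of 18338 as higher in A549.

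The lines were then set side by side probe by probe. Over the 51 member probes, the HepG2 and A549 differences had a Pearson correlation of -0.21 and a Spearman correlation of -0.25, and 30 (58.8%) had opposite signs. Over all 31607 probes with a difference in both lines, Pearson's r was -0.08, the Spearman correlation was -0.20, and the share with opposite signs was 58.8%. Over the 15854 probes whose mean was at or above the median, the Pearson and Spearman correlations were -0.27 and -0.39, against -0.14 and -0.17 over the 44 member probes in that range. The probes of a gene share their RNA and the arrays, and the points are no replicates. Over all intensities, the share of member probes with opposite signs was thus that of all probes. Among probes with a mean at or above the median it was 54.5% of the 44 member probes, against 64.9% of all 15854. What makes the lines differ in sign over the whole array was not tested. Probes at least 1.5-fold lower in HepG2 and 1.5-fold higher in A549 numbered 3 of the 51 (5.88%), against 500 of all 31607 probes (1.58%). They were probe 1 of ACLY, probe 1 of ACACA and probe 3 of PNPLA2. For each of the 3, another probe of the same gene gave a difference under 1.5-fold in both lines.

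**Figure D3:**
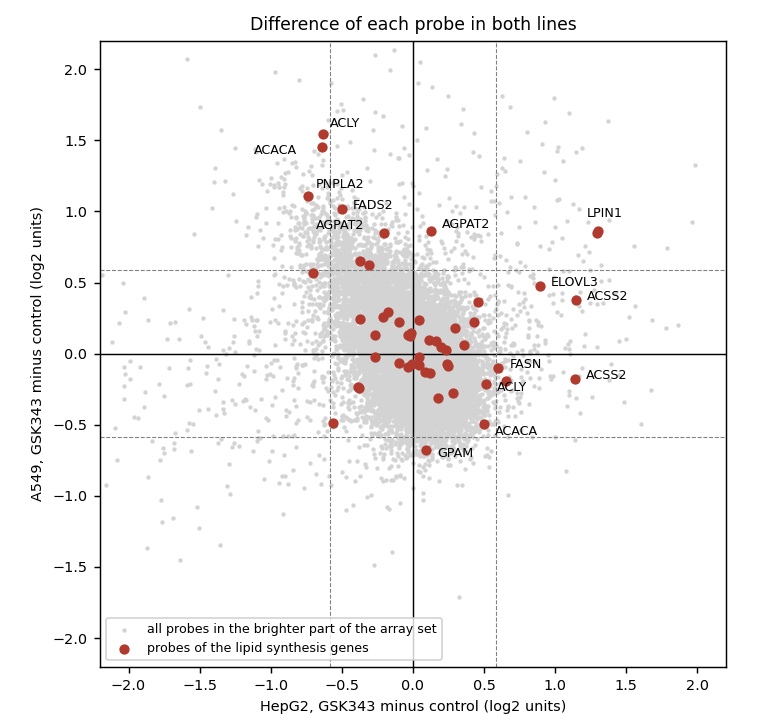
Difference (GSK343 minus control, log2 units) of each probe in HepG2 (x axis) and A549 (y axis), for member probes (red) and for all probes whose mean is at or above the median (grey); dashed lines mark 1.5-fold, and probes beyond the axes are not drawn. Both LPIN1 probes lie at the upper right (1.30 and 1.29 in HepG2, 0.86 and 0.85 in A549), and probe 1 of ACLY and of ACACA at the upper left, near the edge of the grey cloud, which slopes downwards (r = -0.27).

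The differences between the control cells of the lines covered a wider range than those with GSK343. In HepG2 control cells, 9 of the 35 genes (25.7%) were at least 2-fold higher than in A549 control cells and 3 (8.57%) 2-fold lower, against 13.0% and 13.7% of all genes. The median difference, HepG2 control minus A549 control, was 0.10 for the members (-0.016 with the brightest probe of each gene) and 0.07 for all genes. A spot under the 25th percentile of its control array (100.4 in HepG2 and 96.8 in A549) was set to that percentile to give a lower bound of the fold, which left the counts at 9 and 3. MLXIPL (9849 in HepG2 control and 189 in A549 control) was 52.2-fold and DGAT2 (6809 and 554) 12.3-fold higher in HepG2. ACSL5 (3053 in HepG2 control and 90.1 in A549 control, a spot under the 25th percentile) was at least 31.5-fold higher. ACSL4 was higher by 2.95, ELOVL2 by 2.76 and PLIN2 by 2.57 log2 units, and ACSL1, GPAM and ACSS2 made up the 9. The 4 acyl-CoA synthetases were all above 0, with a median of 2.65.

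ME1, AGPAT2 and SCD5 were the 3 genes at least 2-fold lower in HepG2 control than in A549 control cells. ME1 had a difference of -6.55 on probe 1 and was at least 67.5-fold lower in HepG2 on probe 2, whose HepG2 spot was under the 25th percentile. AGPAT2 had differences of -3.54 and -4.39 on its probes. SCD5 gave 24.1 in HepG2 control and 1263 in A549 control cells on probe 2, and 112 and 115 on probe 1, at percentiles 26.8 and 28.0 of the control arrays, so that its lower level in HepG2, at least 12.6-fold on probe 2, was read by that probe alone. SREBF1 and FADS1 followed with -0.79 and -0.73, both under 2-fold, and no fold is given for THRSP, which was under the 25th percentile on both control arrays. The lines therefore differed in which genes of the pathway were bright, with DGAT2, ACSL5 and MLXIPL brighter in HepG2 and AGPAT2 and ME1 brighter in A549. In the line where each was dimmer, AGPAT2 lay at percentiles 42.4 and 34.2 of the HepG2 control array, and ACSL5 at 23.7 and MLXIPL at 36.2 of the A549 control array.

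**Figure D4:**
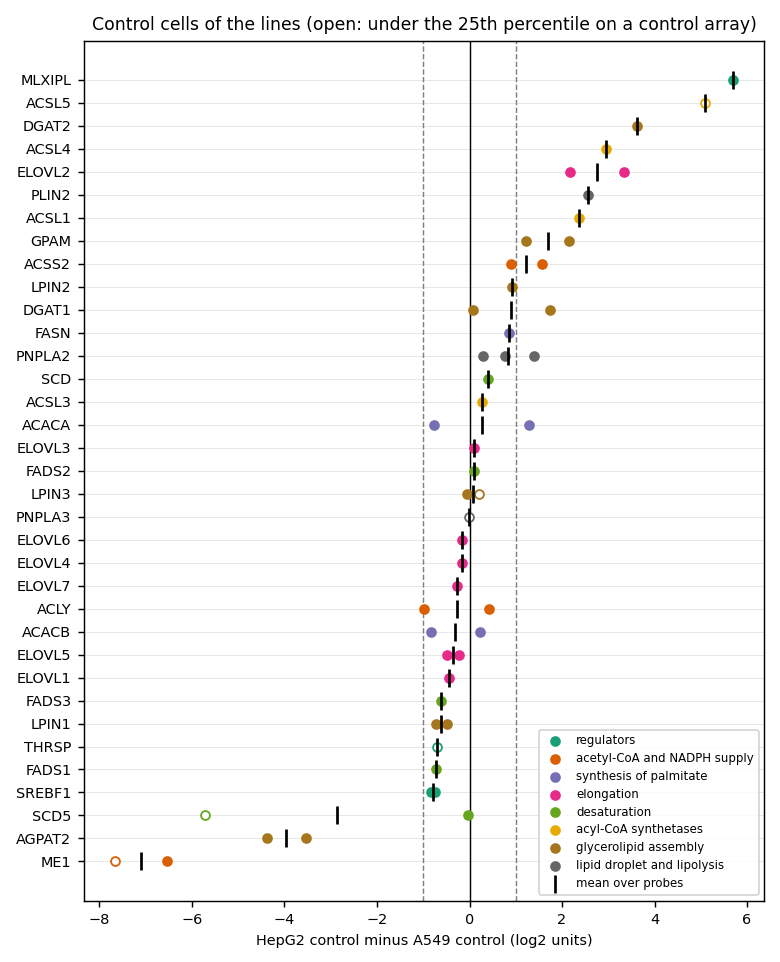
HepG2 control minus A549 control (log2 units, x axis) for each probe (circles, coloured by role, open where under the 25th percentile on a control array) and gene mean (ticks) of the 35 genes, sorted by mean; dashed lines mark 2-fold. MLXIPL (5.71) and the acyl-CoA synthetases lie to the right of 0 and both AGPAT2 probes (-3.54 and -4.39) to the left, and the open circles of ME1, SCD5 and ACSL5 are drawn at their measured values, in which 1 spot was dim.

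Promoter windows of RefSeq (GRCh38.p14) were used for 30 of the 35 genes, with 44 windows of 300 bases. No window was used for DGAT1, DGAT2, FASN, LPIN3 and PNPLA3. The sterol regulatory element TCACNCCAC, searched on both strands, was in 2 of the 44 windows (4.55%) and in 1.13% of all 35116 windows. The E-box CACGTG was in 4 (9.09%, all windows 7.26%), the CCAAT box in 18 (40.9%, all windows 34.6%) and the GC box GGGCGG in 32 (72.7%, all windows 45%). The stretch of ACSL1 that holds the element, at chr4:184805777-184805803 on the - strand, at one of several starts, is printed to show this motif of SREBP in the list. The match, on the complement strand, is in capitals and lies 242 to 234 bases before the start.
ACSL1: gtggagcaGTGGGGTGActttgctgct
ACSL1 differed by -0.03 in HepG2 and -0.10 in A549. The letters of the motif in a window are a description and do not show binding.

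Genes around the pathway were grouped in 9 further lists. Those past 1.5-fold are named below after their values were seen, and the others named are among the up to 3 genes per list with the largest mean difference over both lines among brighter genes. For scale, 2.0% of all genes were 1.5-fold higher and 5.47% lower in HepG2, and 5.21% higher and 2.76% lower in A549. The medians of all genes were -0.02 in HepG2 and 0.04 in A549. Of the 6 genes of the SREBP processing list, 0 were past 1.5-fold in HepG2 (median -0.23). In A549 3 were higher (median 0.57): INSIG1, MBTPS1 and SREBF2, which encodes an SREBP itself. SREBF2 had 1 probe, at 532 with GSK343 and 285 in control A549 cells (0.90). In HepG2 this probe gave 796 with GSK343 and 1099 in control cells (-0.47). After median centring the count was 2 in A549. INSIG1, which holds SREBP in the endoplasmic reticulum and is itself a target of SREBP, gave 2613 with GSK343 and 595 in control A549 cells on one probe, and 31938 and 13156 on the other. In HepG2 the same probes gave 23.8 with GSK343 and 26.1 in control cells, and 136 and 72.2. INSIG1 was thus 3.27-fold higher in A549 by its mean, and dim in HepG2. MBTPS1, the site-1 protease that cuts SREBP, gave 10102 with GSK343 and 6445 in control A549 cells (0.65), and 7396 with GSK343 and 10009 in control HepG2 cells (-0.44). SCAP, the SREBP escort protein, differed by -0.16 and -0.03.

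Of 12 measured genes of cholesterol synthesis, which share SREBP control (17 were listed for synthesis and uptake, and uptake genes were not analysed here), 5 were 1.5-fold higher in HepG2 (HMGCS1, IDI1, FDFT1, DHCR7 and MSMO1; list median 0.46) and 5 in A549 (MVK, IDI1, FDPS, SQLE and MSMO1; list median 0.26), with 0 lower in either line. IDI1, isopentenyl diphosphate isomerase, was higher by 0.65 in HepG2 and 0.98 in A549, and MSMO1, a sterol demethylating oxidase, by 0.74 and 0.79. Median centring and quantile normalization left these counts at 5 and 5. The share of all genes 1.5-fold higher was 2.0% in HepG2 and 5.21% in A549 as deposited.

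The other lists held few genes past 1.5-fold. Among 10 transcription partners of lipogenesis, 0 passed in HepG2 and 2 in A549, NR1H2 and USF2, against 1 in A549 after median centring or quantile normalization. NR1H2, which encodes the liver X receptor beta, gave 1922 with GSK343 and 998 in control A549 cells on one probe (0.95) and 1816 and 1319 on the other (0.46), and in HepG2 the same probes differed by -0.71 and -0.17. Of 7 measured genes of precursor and NADPH supply, 1 passed in A549: SLC25A1, the mitochondrial citrate carrier, gave 4243 with GSK343 and 2682 in control A549 cells (0.66), and 8989.5 and 9074 in HepG2 cells with GSK343 and without (-0.01). Its A549 value was under 1.5-fold after median centring. Of the 6 genes for the other steps of chain elongation, 0 passed in either line, and HSD17B12, the ketoacyl-CoA reductase, differed by 0.33 in HepG2 and -0.47 in A549, and was the 1 gene of this list 1.5-fold lower in A549 after median centring.

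Among 9 other acyl-CoA synthetases and fatty acid transport proteins, SLC27A3 was higher in HepG2 and 0 passed in A549. Of 10 other acyltransferases of glycerolipid synthesis, AGPAT4 and MOGAT2 were lower in HepG2 and 0 passed in A549. Of 15 further genes of lipolysis and droplets, BSCL2, which encodes seipin, was higher in HepG2, at 6845 with GSK343 and 4478 in control cells (0.61), with -0.21 in A549. Of 15 measured genes of fatty acid oxidation (17 listed), PDK4, the kinase that turns off pyruvate dehydrogenase, was higher in A549, at 3293 with GSK343 and 2121 in control cells (0.63), and was dim in HepG2. After median centring 0 genes of this list passed in A549. The medians of these 4 lists lay between -0.20 and -0.04 in HepG2 and between -0.14 and 0.26 in A549. After median centring, 3 of the 4 HepG2 medians were above 0, and after quantile normalization the A549 median of the oxidation list was 0.03.

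**Figure D5:**
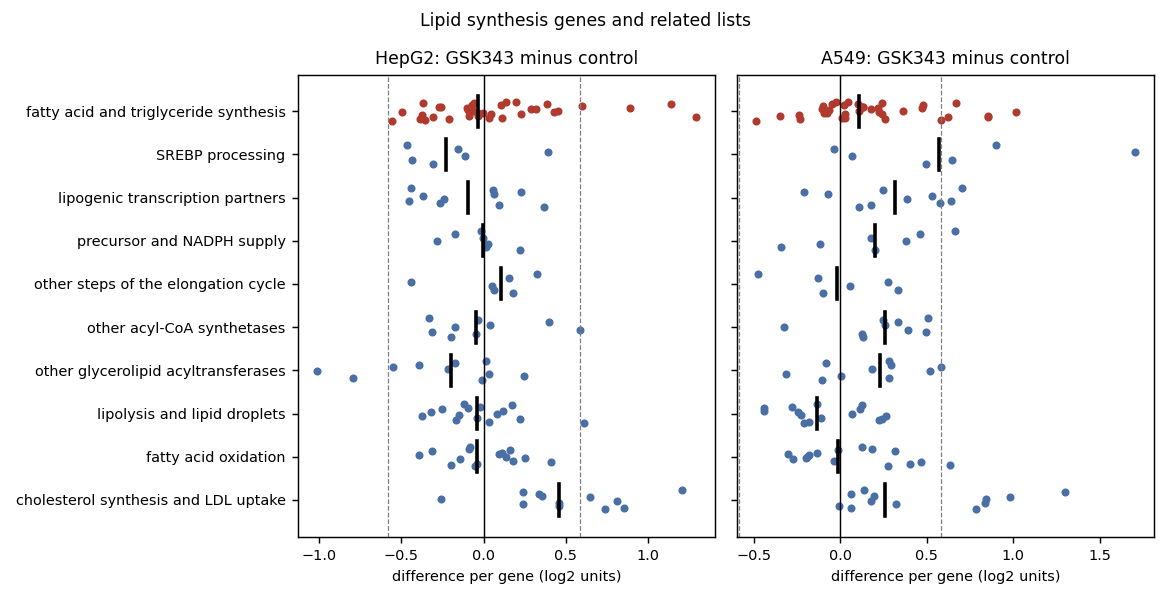
Difference per gene (GSK343 minus control, log2 units, x axis) for the 35 genes (red) and the 9 related lists (blue, y axis), in HepG2 (left) and A549 (right), with black bars at list medians and dashed lines at 1.5-fold; the x scale differs between panels. The cholesterol list has the highest median in HepG2 (0.46) and the SREBP processing list in A549 (0.57). The medians of the 35 genes are -0.03 and 0.11 and change sign after median centring, as do those of all genes.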

How the data were processed

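Human OneArray Plus, a one-colour array, was hybridized with amplified, Cy5-labelled RNA of each of 4 groups, 1 array per group. The authors deposited a processed intensity (linear, not log) for each of 31741 probes. The table holds neither spot flags nor background columns. The scanner, background correction and normalization are not given in the sources used here, so their effect on the values could not be checked. Low values on each array were multiples of a constant between 0.949 and 1.05, and between 41 and 91 probes per array were at or below 0 and left out. The array medians lay between 449.8 and 498.8. Having 1 array per group limits the precision.

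Probes were named through the platform annotation, in which 24740 name 1 gene, 977 several and 6024 none. Values were taken as log2 without further scaling and subtracted within each line, and a gene was the mean over probes naming it alone. Numbering of probes follows their order in the platform. The spread between probes is the root mean square of the gaps between probes of a gene over the square root of 2. Counts used 1.5-fold, and 2-fold between the control arrays of the lines, where the bound for spots under the 25th percentile was added after the values were seen. With 1 array per group no test was run. Percentiles are ranks of a probe among all probes of its array. The members and the related lists were chosen with earlier results of these data known. Values on every array are given for members past 1.5-fold in either line, members with a probe past 2-fold, and the 6 members with the largest difference between the control arrays in each direction. The alternatives were median centring, quantile normalization, the brightest probe, filters that kept probes reaching the array median (or its 25th percentile), adding 50 to every value, shared probes and a 2-fold size. The rule that every probe passes was added after the values were seen. Promoter windows were from RefSeq, GRCh38.p14, and 1 promoter sequence is not reported here. Python 3.11.15, numpy 2.4.6, pandas 2.3.3 and matplotlib 3.10.9 were used, and the scripts were tested on simulated data.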

Additional observations from a re-analysis of the deposited data

Results flagged for a closer look

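Probe 1 of ACLY, probe 1 of ACACA and probe 3 of PNPLA2 were each at least 1.5-fold lower with GSK343 in HepG2 and at least 1.5-fold higher with GSK343 in A549. The HepG2 difference minus the A549 difference was -2.18 log2 units for ACLY, -2.09 for ACACA and -1.85 for PNPLA2. The difference between the lines was not tested, since each group is 1 array, and these probes were chosen after their values were seen. Probe 2 of ACLY gave 0.72 and probe 2 of ACACA 0.99 for the same quantity, with the opposite sign, and probe 2 of PNPLA2 gave 0.06.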

How the results depend on the processing

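The median difference of the 35 genes with GSK343 lay near 0, and its sign depended on the processing. In HepG2 it was -0.03, against 0.033 after median centring, 0.084 with the brightest probe per gene and 0.064 with probes at or above the median. Over all genes, the same settings gave -0.02, 0.050, 0.002 and -0.0009. In A549 the median of the 35 genes was 0.11, against -0.010 after median centring and -0.023 with the brightest probe. Over all genes these were 0.04, -0.080 and 0.0125. Between the control arrays of the lines the median of the 35 genes was 0.10, against -0.016 with the brightest probe. The count of genes 1.5-fold higher in HepG2 was 4, and 2 (LPIN1 and ACSS2) at 2-fold. In A549 the count was 5, against 3 after median centring and 1 (FADS2) at 2-fold. The count of lower genes in A549 was 0, against 1 after median centring (PNPLA3) and 1 with the brightest probe (GPAM). Over all 18338 genes in A549, 956 were higher as deposited and 587 after median centring. Lower genes numbered 507 as deposited, 945 after median centring and 601 with the brightest probe. The share of all genes past 2-fold with GSK343 was not computed. ACLY in A549 had a mean of 0.67 over its probes, against -0.21 with the brightest probe. These are 12 changed values of the list and of ACLY. The other 46 values for the list as a whole moved by less than the spread between probes allows (counts by at most 1.5 times). The same held for 272 values for single genes, and 7 more of these moved by over that spread, all with the brightest probe. Some of this was fixed beforehand: 0 of the 51 member probes named a further gene, so shared probes could change nothing. The brightest probe cannot change the 20 genes with 1 probe. Median centring shifts every single-gene value of a line by a constant smaller than the spread between probes. Such values are no evidence of stability. No paired analysis was possible because each group has 1 array. With no replicate, no background columns and no flags, the size of a difference that the arrays could separate from technical variation is unknown, and dim members such as THRSP and PNPLA3 are least certain.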
